A study of Mus musculus with 13 samples.

Results

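Scavenger receptors and genes that mark the macrophages at the borders of the brain were followed in bulk RNA-seq of mouse brain. The set was 10 genes, Cd68, Msr1, Cd36, Scarb1, Lrp1, Colec12, Mrc1, Cd163, Stab1 and F13a1, of the 55401 in the deposited table, and they were taken by the gene names of its annotation. Of these, 9 passed the filter on low counts and were tested beside 14985 genes in all, and Cd163 was too low. The 13 libraries came from single frozen hemispheres of male mice aged 6 to 8 weeks. Control mice (CTL, 5 libraries) ate the control diet for 6 weeks and were collected at week 6. Cuprizone mice (CPZ, 4 libraries) ate a diet with 0.3% cuprizone, a copper chelator that strips myelin from the brain, for 4 weeks and were collected at week 4. Recovery mice (RCV, 4 libraries) ate the same cuprizone diet for 4 weeks and then the control diet for 2 weeks, and were collected at week 6. The titles of all RCV libraries begin with Veh, a term that the methods of the study do not explain. Whatever it names cannot be told apart from recovery. The methods of the study add a perfusion with saline before dissection. Cuprizone mice were thus collected 2 weeks earlier than both other groups, and diet and collection week cannot be told apart in the comparisons that involve them. The methods of the study name wild-type C57BL/6J mice and an age at purchase above that of the labels. A whole hemisphere holds meninges, vessels and choroid plexus beside the parenchyma, so fewer cells of a type and less RNA per cell cannot be told apart in any value below.

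Scavenger receptors are surface or lysosomal proteins of different families that bind modified lipoproteins, dying cells and debris and carry them into the cell. In brain, microglia clear myelin debris with the help of such receptors, and the lipid taken up must then be stored or exported. Border macrophages live along vessels, in the meninges and in the choroid plexus, and are usually told from microglia by the mannose receptor, the haemoglobin scavenger receptor and other lectins, which resident microglia hold at low levels. Several of the receptors are also used by other cells, such as Cd36 and Stab1 in endothelium and Lrp1 in neurons and astrocytes.

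Promoter sequences were available from RefSeq (GRCm38.p6) for 7 of the 10 genes. Below are the 250 bases before the start site of Cd68 and Stab1, which were both higher in CPZ, and of Mrc1, a macrophage gene that was not called. The Cd68 window lies at chr11:69666171-69666420 on the minus strand, the Stab1 window at chr14:31168642-31168891 on the minus strand and the Mrc1 window at chr2:14229164-14229413 on the plus strand. Capitals mark matches, on either strand, to the letters GAGGAA of PU.1, a factor of myeloid cells (TTCCTC when read on the other strand), and to the letters TGANTCA of AP-1. The letters CACGTG of the E-box of lysosomal genes were also searched and matched in none of the windows of these 7 genes.
Cd68: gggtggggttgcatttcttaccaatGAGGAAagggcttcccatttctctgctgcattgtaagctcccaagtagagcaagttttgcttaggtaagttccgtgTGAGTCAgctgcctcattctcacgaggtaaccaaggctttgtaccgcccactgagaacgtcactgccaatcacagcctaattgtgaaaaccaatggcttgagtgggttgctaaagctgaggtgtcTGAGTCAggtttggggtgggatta
Stab1: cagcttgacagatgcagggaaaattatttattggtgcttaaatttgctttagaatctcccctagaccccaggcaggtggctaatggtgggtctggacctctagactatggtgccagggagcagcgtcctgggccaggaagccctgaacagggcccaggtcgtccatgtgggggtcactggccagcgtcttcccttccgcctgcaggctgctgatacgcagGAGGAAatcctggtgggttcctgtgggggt
Mrc1: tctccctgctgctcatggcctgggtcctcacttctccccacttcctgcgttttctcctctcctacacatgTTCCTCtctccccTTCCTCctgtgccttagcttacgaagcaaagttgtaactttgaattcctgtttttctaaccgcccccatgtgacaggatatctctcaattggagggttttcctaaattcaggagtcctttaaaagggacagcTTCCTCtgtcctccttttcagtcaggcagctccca
The Cd68 stretch held the PU.1 letters from 225 bases before the start site and the AP-1 letters from 149 and 24 bases before it. Stab1 held the PU.1 letters once, from 30 bases before its start site. The Mrc1 stretch held them 3 times on the other strand, from 180, 167 and 35 bases before the start site. Over all 32851 promoter windows of 300 bases in the table, which also reach 50 bases past the start site, 28.3% held the PU.1 letters, 7.81% the AP-1 letters and 7.15% the E-box letters. The windows of F13a1, a gene that was not called, also held PU.1 letters, while those of Cd36, Lrp1 and Cd163 held no match. PU.1 matches were thus present both in genes that rose and in genes that were not called.

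Cd68, Msr1 and Stab1 rose in CPZ against CTL, and no gene of the set fell. The call was an adjusted p under 0.05 in the edgeR quasi-likelihood test over all tested genes. The other 6 genes tested did not pass. Msr1 held 0 to 2 counts in every CTL and RCV library and passed the filter on low counts only through CPZ. Its calls and its lack of overlap in the comparisons of CPZ are therefore not independent of the filter. In the whole table, 7.66% of the genes tested were called higher in CPZ and 2.5% lower, and the median log2 fold change over the 9 genes was 0.41 against -0.02 over all genes. The CPZ and CTL libraries of 3 genes of the set did not overlap, beside 13.1% of all genes tested. In RCV against CTL only Cd68 was called higher, where 0.36% of all genes were called higher and 0.0133% lower, and its libraries were the only ones in the set without overlap, beside 2.9% of all genes. CPZ against RCV called Cd68, Msr1, Stab1 and Scarb1 higher in CPZ and none lower, beside 5.13% and 1.88% of all genes. The libraries of these 4 genes and of Colec12 did not overlap between CPZ and RCV, beside 13.2% of all genes. Since CPZ and RCV were each compared with the same controls, the comparisons are not independent of each other.

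**Figure D1:**
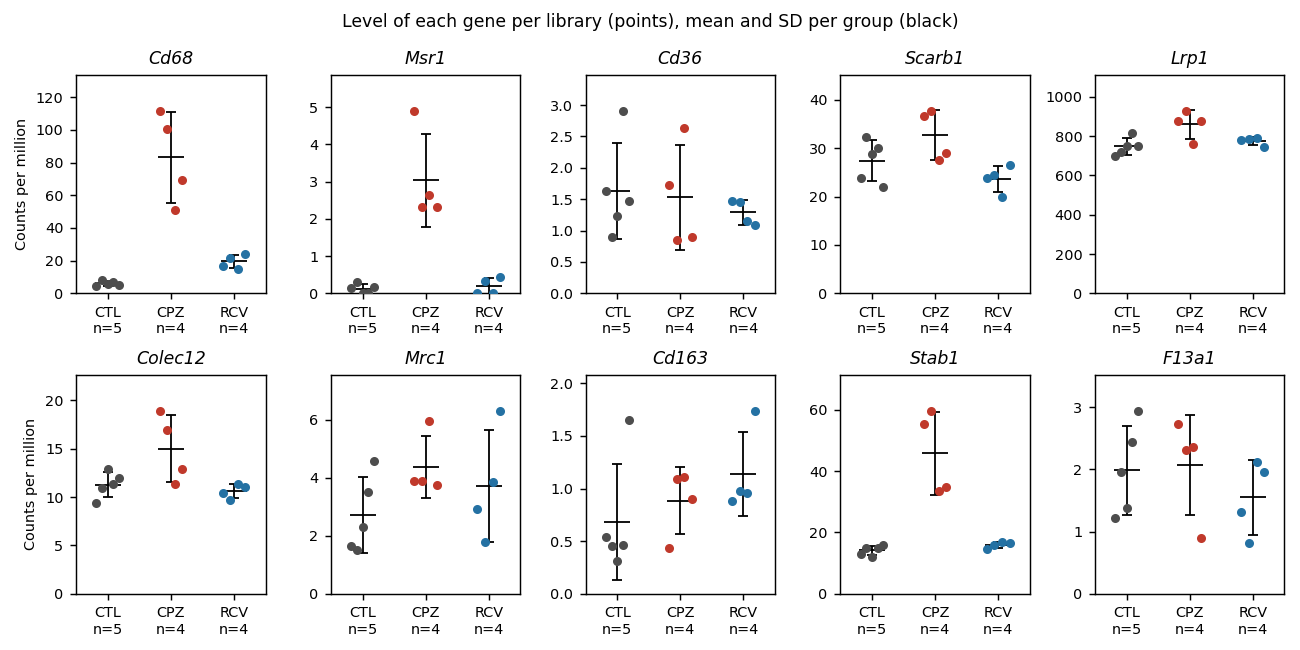
Each panel plots 1 gene of the set in CPM (linear axis from 0) in the 5 CTL, 4 CPZ and 4 RCV libraries, as 1 point per library with the mean and SD of the group in black. For Cd68, Msr1 and Stab1 every CPZ library lies above every CTL and RCV library, while the groups overlap for Cd36, Mrc1, Cd163 and F13a1.

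Cd68 encodes a heavily glycosylated protein of late endosomes and lysosomes and is the usual marker of phagocytic microglia and macrophages (ENSMUSG00000018774.13, chr11:69664213-69666153, minus strand, mm10). Its CTL libraries held 4.76, 8.40, 5.99, 7.03 and 5.13 CPM (counts scaled to a common library size by TMM). The CPZ libraries held 111, 101, 51.1 and 69.2 CPM, and the RCV libraries held 16.9, 21.9, 15.2 and 24.1 CPM. The 3 groups did not overlap, with RCV between the others, and CPZ replicate 3 was the lowest of its group. Group means were 6.26 ± 1.48 CPM (SD, n = 5) in CTL, 83.1 ± 27.9 (n = 4) in CPZ and 19.5 ± 4.16 (n = 4) in RCV. Cd68 was 13.2-fold higher in CPZ than in CTL (log2 fold change 3.72, SE 0.26, edgeR adjusted p = 1.24e-06) and 4.28-fold higher in CPZ than in RCV (2.10, SE 0.24, edgeR adjusted p = 3.86e-04). In RCV it was 3.09-fold higher than in CTL (1.63, SE 0.28, edgeR adjusted p = 0.0331). Both CPZ calls held under every alternative fit, but the RCV call held in 2 of 9 edgeR fits that left out 1 library and in 7 of 11 other fits. The edgeR adjusted p was 0.115, 0.103, 0.0979 and 0.0918 without CTL replicates 1, 3, 4 and 5, and 0.0779, 0.171 and 0.101 when RCV replicate 1, 2 or 4 was left out. The log2 fold change without 1 library stayed between 1.52 and 1.76.

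Msr1 encodes the class A macrophage scavenger receptor, a trimer that binds oxidised lipoproteins and other polyanionic ligands (chr8:39581685-39642673, minus strand, mm10). It was almost absent outside CPZ. The CTL libraries held 1, 2, 0, 0 and 1 counts, the RCV libraries 0, 2, 0 and 2, and the CPZ libraries 34, 19, 19 and 18. Every CPZ library was thus above every other library, and replicate 1 stood apart with 4.90 CPM against 2.31 to 2.64 in the other 3. Summed over libraries and set against their depth, Msr1 was 24.6-fold higher in CPZ than in CTL (95% interval from counting error alone 9.27 to 92.1, from 90 and 4 counts) and 17.4-fold higher than in RCV (6.58 to 65.4). The fit gave log2 fold changes of 4.42 (SE 0.60, edgeR adjusted p = 8.70e-05) and 3.96 (SE 0.64, edgeR adjusted p = 0.00118), which rest on counts near 0 in the lower group. In the deposited TPM the CPZ libraries (1.51 to 6.40) overlapped with RCV (0 to 1.81), and the call of CPZ against RCV held in 7 of 10 other fits and was lost in those on log2 TPM (limma adjusted p = 0.0516 to 0.107). Between RCV and CTL the sums were 4 and 4 counts, and a difference was not detectable at this depth (ratio 1.41, interval 0.262 to 7.56).

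Cd36, a class B receptor that takes up fatty acids and oxidised lipoproteins, stayed low throughout (chr5:17781690-17888801, minus strand, mm10). Its libraries held 6 to 19 counts in CTL, 7 to 19 in CPZ and 5 to 10 in RCV. The 3 ranges overlapped, and no comparison passed the test. For CPZ against CTL the log2 fold change was -0.11 with a 95% interval from -0.93 to 0.72, so changes of either sign within that range were not resolved.

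Scarb1 encodes the receptor for high-density lipoprotein, through which cells take up or release cholesterol (chr5:125277087-125341094, minus strand, mm10). CTL libraries held 23.9, 32.3, 28.9, 30.1 and 22.0 CPM. The CPZ libraries held 36.6, 37.7, 27.6 and 29.1 CPM, and the RCV libraries 23.9, 24.5, 20.02 and 26.5 CPM. CTL overlapped with both other groups, while the lowest CPZ library was just above the highest RCV library. Scarb1 was 1.38-fold higher in CPZ than in RCV (log2 fold change 0.47, SE 0.13, edgeR adjusted p = 0.0482), and CPZ against CTL did not pass (0.25, SE 0.12, edgeR adjusted p = 0.252). The call against RCV held in 3 of 8 edgeR fits without 1 library and in 6 of 11 other fits. It was lost without CPZ replicate 1 or 2 (edgeR adjusted p = 0.152 and 0.157) and when RCV replicate 1, 2 or 3 was left out (edgeR adjusted p = 0.109, 0.0704 and 0.143).

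Lrp1 encodes a very large endocytic receptor of the LDL receptor family that binds apolipoprotein E, alpha-2-macroglobulin and protease complexes (chr10:127538161-127621148, minus strand, mm10). It was the most abundant gene of the set in all 3 groups. CTL libraries held 700, 720, 751, 815 and 750 CPM, CPZ libraries 876, 927, 758 and 874, and RCV libraries 779, 783, 792 and 747. Replicate 3 was the only CPZ library within the CTL range. The difference between CPZ and CTL was small and missed the threshold (log2 fold change 0.20, SE 0.06, edgeR adjusted p = 0.0564). Lrp1 passed in 3 of 11 other fits, among them DESeq2 (0.20, DESeq2 adjusted p = 0.0189). It passed without CTL replicate 4 (0.23, edgeR adjusted p = 0.0238) or CPZ replicate 3 (0.26, edgeR adjusted p = 0.0102).

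Colec12 encodes a scavenger receptor with a collagen stalk and a C-type lectin head, known mainly from endothelium and stroma. CTL libraries held 9.38, 11.0, 12.9, 11.3 and 11.9 CPM. The CPZ libraries held 18.9, 16.9, 11.4 and 12.9 CPM, and the RCV libraries held 10.4, 9.72, 11.4 and 11.1 CPM. CPZ replicates 1 and 2 were above every CTL library, replicate 4 was level with the highest one and replicate 3 lay within the CTL range. Neither CPZ against CTL (log2 fold change 0.41, SE 0.14, edgeR adjusted p = 0.0864) nor CPZ against RCV (0.50, SE 0.16, edgeR adjusted p = 0.0688) passed. Both passed without CPZ replicate 3 (0.53, edgeR adjusted p = 0.0201 and 0.62, edgeR adjusted p = 0.0167).

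Among Mrc1, Cd163, Stab1 and F13a1, the 4 genes placed in the set as border macrophage markers, only Stab1 was called. Which cells held its RNA was not tested, so its call does not show a change of border macrophages. Stab1 encodes stabilin-1, a large receptor of macrophages and sinusoidal endothelium that takes up the matrix protein SPARC and dying cells (ENSMUSG00000042286.13, chr14:31139013-31168641, minus strand, mm10). The CTL libraries held 13.05, 15.0004, 12.14, 14.98 and 15.77 CPM and the RCV libraries 14.66, 16.04, 16.74 and 16.48 CPM. In CPZ the libraries held 55.5, 59.6, 33.4 and 34.9 CPM, all above every other library. Stab1 was 3.24-fold higher in CPZ than in CTL (log2 fold change 1.69, SE 0.16, edgeR adjusted p = 6.06e-06) and 2.88-fold higher than in RCV (1.52, SE 0.18, edgeR adjusted p = 2.94e-04). RCV and CTL overlapped, and their difference did not pass (0.17, 95% interval -0.22 to 0.56, edgeR adjusted p = 0.981).

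The deposited TPM values gave a different picture of Stab1. TPM was 11.9, 7.97, 14.9, 6.84 and 11.5 in CTL, 28.6, 32.3, 21.1 and 16.4 in CPZ, and 15.2, 9.93, 21.0 and 12.0 in RCV, so CPZ and RCV overlapped. On log2(TPM + 1), limma gave a difference between CPZ and RCV of 0.73 that did not pass (limma adjusted p = 0.191). TPM divides a gene's counts by the transcript length that the quantification assigned in each library. The length implied by the 2 tables ran from 2885 to 8297 bases for Stab1, a 2.88-fold spread that was wider than in 99.6% of the 9809 genes with at least 50 counts in every library. It was 5810 to 7567 bases in CPZ and 2885 to 5937 bases in RCV. For Lrp1 and Colec12 the spread was 1.138-fold and 1.154-fold. Stab1 shares 112 exonic bases with Nt5dc2 on the opposite strand, which held 368 counts over all libraries, while Stab1 held 1386 in CPZ alone. Whether the counting used strand is not given in the sources used here.

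**Figure D2:**
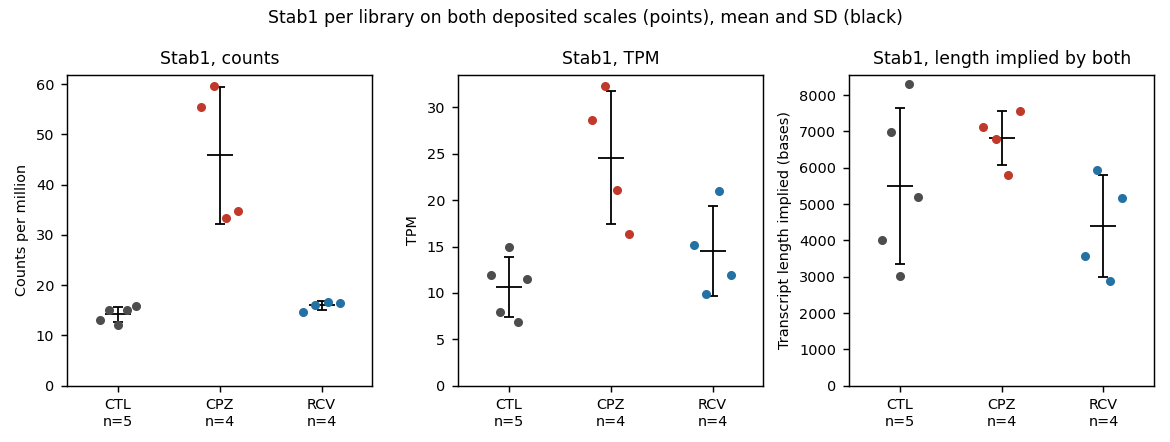
Stab1 in the 13 libraries as CPM (left), TPM (middle) and the transcript length in bases implied by both (right), each on a linear axis from 0 with group means and SD in black. CPZ is clear of RCV in counts (33.4 to 59.6 against 14.7 to 16.7 CPM) but overlaps it in TPM.

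Mrc1 encodes the mannose receptor, the lectin most used to tell border macrophages from microglia (chr2:14229392-14332057, plus strand, mm10). The CTL libraries held 12, 10, 15, 23 and 25 counts, the CPZ libraries 27, 32, 43 and 29, and the RCV libraries 20, 11, 20 and 29. In CPM, CTL spread from 1.5 to 4.58, CPZ from 3.74 to 5.97 and RCV from 1.78 to 6.29. The groups overlapped, and CTL replicate 5 was above 3 of the 4 CPZ libraries. The log2 fold change of 0.71 between CPZ and CTL had a 95% interval from -0.04 to 1.46 and did not pass after adjustment (edgeR adjusted p = 0.26).

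Cd163 encodes the receptor for complexes of haemoglobin and haptoglobin (chr6:124304656-124330527, plus strand, mm10). It held 4, 3, 2, 3 and 9 counts in CTL, 3, 9, 8 and 7 in CPZ, and 6, 6, 5 and 8 in RCV. The groups overlapped in all comparisons, and exact two-sided permutation tests of CPM gave p = 0.571 for CPZ against CTL, 0.254 for RCV against CTL and 0.514 for CPZ against RCV. F13a1 encodes the catalytic subunit of the fibrin-stabilising factor, which tissue macrophages also make (chr13:36867178-37050244, minus strand, mm10). Its counts were 9, 13, 9, 16 and 16 in CTL, 19, 19, 17 and 7 in CPZ, and 9, 5, 11 and 9 in RCV. CPZ replicate 4 was below every CTL library in counts and in CPM. The other 3 CPZ libraries were above every CTL library in counts, but not in CPM, which takes depth into account. They held 2.74, 2.31 and 2.36 CPM, while CTL replicates 4 and 5 held 2.45 and 2.93 CPM. The log2 fold change between CPZ and CTL was 0.08 with a 95% interval from -0.68 to 0.84.

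**Figure D3:**
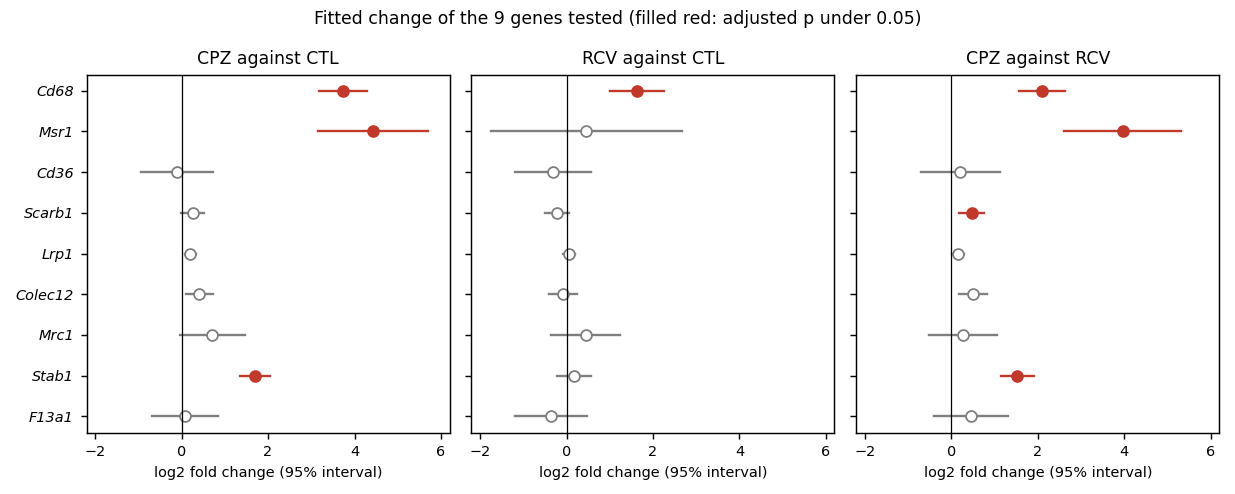
Fitted log2 fold changes of the 9 genes tested, as points with 95% intervals, in 1 panel per comparison, with filled red points for an adjusted p under 0.05. Cd68, Msr1 and Stab1 lie far right of 0 in both comparisons of CPZ (1.52 to 4.42), and the intervals of Cd36, Mrc1 and F13a1 are wide.

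The levels of the genes can be ranked in TPM, which is per length. Mean TPM in CTL was 199 for Lrp1, 25.1 for Scarb1, 12.4 for Cd68, 10.6 for Stab1, 6.09 for Colec12, 1.83 for Cd36, 1.196 for F13a1, 1.146 for Mrc1, 0.350 for Cd163 and 0.214 for Msr1. Cd68, Stab1 and Colec12 overlapped with their neighbours in this order, as did the last 5 genes. In CPZ Cd68 moved to second place with 158 ± 51.4 TPM (SD, n = 4), a range that overlapped with the 231 ± 19.7 TPM of Lrp1 (SD, n = 4). It stayed second in RCV with 37.5 ± 7.23 TPM (SD, n = 4), clear of Lrp1 above it and of Scarb1 below it.

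Markers of the cell types that bear most on these genes were followed in the same libraries. All 12 microglial markers were called higher in CPZ against CTL and in CPZ against RCV, with medians of 1.77 and 1.24 on the log2 scale, and none was called in RCV against CTL by edgeR (median 0.41, 5 with an unadjusted p under 0.05, 2 called by DESeq2 and 0 by limma-voom). Their summed level was 336 to 402 CPM in CTL, 934 to 1832 in CPZ and 457 to 560 in RCV. Of 13 further markers of border macrophages only 3 passed the filter, Siglec1, Maf and Cd38. The summed level of the 13 was 28.7 to 35.5 CPM in CTL, 45.4 to 71.3 in CPZ and 32.3 to 41.0 in RCV. Most of it came from Maf (mean 22.3 CPM in CTL and 33.0 in CPZ), Cd38 (5.86 and 7.01) and, in CPZ, Siglec1 (11.1). The sum thus says little of the other 10 markers. Siglec1, a sialic acid lectin of macrophages, held 2 to 4 counts in CTL, 48 to 126 in CPZ and 7 to 12 in RCV. It was called higher in CPZ than in CTL (log2 fold change 4.52, SE 0.36, edgeR adjusted p = 7.92e-07) and than in RCV (2.67, SE 0.33, edgeR adjusted p = 2.94e-04). Siglec1 passed the filter on low counts only through CPZ, so these calls are not independent of the filter. Maf, a transcription factor of macrophages and other cells, was called in the same comparisons (0.56 and 0.49). The other 10 were too low for the fit. Among them was Folr2, a folate receptor of border macrophages. It held 0 to 4 counts in CTL, 6 to 9 in CPZ and 0 to 5 in RCV, so that CPZ did not overlap with either other group. Ms4a7 reached 13 counts and Cd209f 7 in a CPZ library, and Pf4, Lyve1 and Cbr2 held at most 6 counts in any library. Lyve1 (0.298 against 0.415), Cd209a (0.133 against 0.284) and Clec10a (0.301 against 0.398) had a lower mean CPM in CPZ than in CTL. For Lyve1 every CPZ library was also below every RCV library in CPM. The rest of the 10 had a higher mean in CPZ than in CTL. At these counts the label of border macrophage markers could not be checked on the genes that define those cells.

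None of the 5 monocyte markers and none of the 5 neutrophil markers passed the filter, and the monocyte markers summed to 2.64 CPM or less in every library. The neutrophil markers summed to 0 to 9.90 CPM in CTL, 0 to 0.646 in CPZ and 0.486 to 12.9 in RCV. Of 5 astrocyte markers, which bear on Lrp1, edgeR called 3 higher in CPZ against CTL, Aqp4 (log2 fold change 0.54), Aldh1l1 (0.39) and Slc1a3 (0.36). DESeq2 and limma-voom each called 3. Of 5 neuron markers, which also bear on Lrp1, none was called in CPZ against CTL by edgeR, DESeq2 or limma-voom (median -0.05 on the log2 scale). The part of either list in the values of Lrp1 was not tested. Red blood cell markers summed to 181 to 244 CPM in CTL, 147 to 219 in CPZ and 221 to 316 in RCV, and 2 of the 5, Hba-a2 (-0.59) and Hbb-bt (-0.91), were called lower in CPZ than in RCV by edgeR. Endothelial markers, which bear on Stab1, Cd36 and Colec12, summed to 255 to 293 CPM in CTL, 245 to 266 in CPZ and 242 to 262 in RCV, and none of the 8 was called in CPZ against CTL by edgeR, DESeq2 or limma-voom (1 with an unadjusted edgeR p under 0.05). In RCV against CTL 1 of the 8, Cldn5, a tight junction protein, was called lower by edgeR (-0.68, edgeR adjusted p = 0.0263), while DESeq2 called 1 of the list lower and limma-voom 0. Choroid plexus markers summed to 419 to 2751 CPM in CTL and 618 to 2347 in CPZ, but to 19.6 and 15.2 CPM in RCV replicates 3 and 4, against 494 and 1432 in the other RCV libraries. Markers of meningeal fibroblasts spread from 38.7 to 95.6 CPM in RCV and from 24.8 to 45.2 in CPZ, and 1 of the 6 was called lower in CPZ than in RCV by edgeR. These tissues house border macrophages, and their part in the values of Mrc1, Cd163 and F13a1 was not tested. Without RCV replicates 3 and 4, Cd68, Msr1 and Stab1 were still called in CPZ against RCV (edgeR), while the call of Scarb1 (edgeR adjusted p = 0.196) and that of Cd68 in RCV against CTL (edgeR adjusted p = 0.192) were lost. All 6 markers of mature oligodendrocytes were called lower in CPZ than in CTL, with a median of -1.60 on the log2 scale.

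To set each gene against microglial markers, its log2-CPM was taken relative to the mean of the 12 microglial markers in the same library. In CPZ against CTL the 12 rose unevenly, by 0.75 to 3.41 on the log2 scale. A value relative to their mean thus depends on which markers are in the list and does not measure microglial content. All 13 libraries placed Stab1 within a narrow range below the mean of these markers. It stood at -0.68, -0.57, -0.58, -0.41 and -0.42 in CTL, at -0.67, -0.53, -0.51 and -0.81 in CPZ, and at -0.82, -0.80, -0.53 and -0.77 in RCV. The difference between CPZ and CTL was -0.10 with overlapping groups (exact two-sided permutation p = 0.286). Cd68 stood at -2.08 to -1.38 in CTL, 0.09 to 0.34 in CPZ and -0.67 to -0.23 in RCV, and no group overlapped with another. Cd68 was thus 1.90 higher relative to the markers in CPZ than in CTL (exact permutation p = 0.0159, the smallest possible), and 1.23 higher in RCV than in CTL at the same p.

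Most of the remaining genes had lower values relative to the markers in CPZ. The markers themselves rose in CPZ against CTL (median log2 fold change 1.77), so a gene that did not change is bound to come out lower. Scarb1, Lrp1 and Colec12 had log2 fold changes above 0 in the fit (0.25, 0.20 and 0.41), and their lower values do not show a fall. The difference between CPZ and CTL was -1.47 for Scarb1, -1.53 for Lrp1, -1.35 for Colec12, -1.70 for F13a1, -1.83 for Cd36 and -1.01 for Mrc1, while it was 1.23 for Msr1. With 0 to 2 counts of Msr1 in CTL, the size of that value is set by the prior count. Of the 27 tests, 16 had an unadjusted exact permutation p under 0.05 and none passed after adjustment (lowest adjusted p = 0.0536, shared by 16 tests). No exact test here can give a p below 0.0159, or 0.0286 for CPZ against RCV. Whether a test passes after adjustment therefore depends on how many others share these lowest values. With Csf1r alone as the reference 19 of the 27 passed. A value relative to the markers shows unequal change within a library only, and says nothing of the cell that held the RNA.

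**Figure D4:**
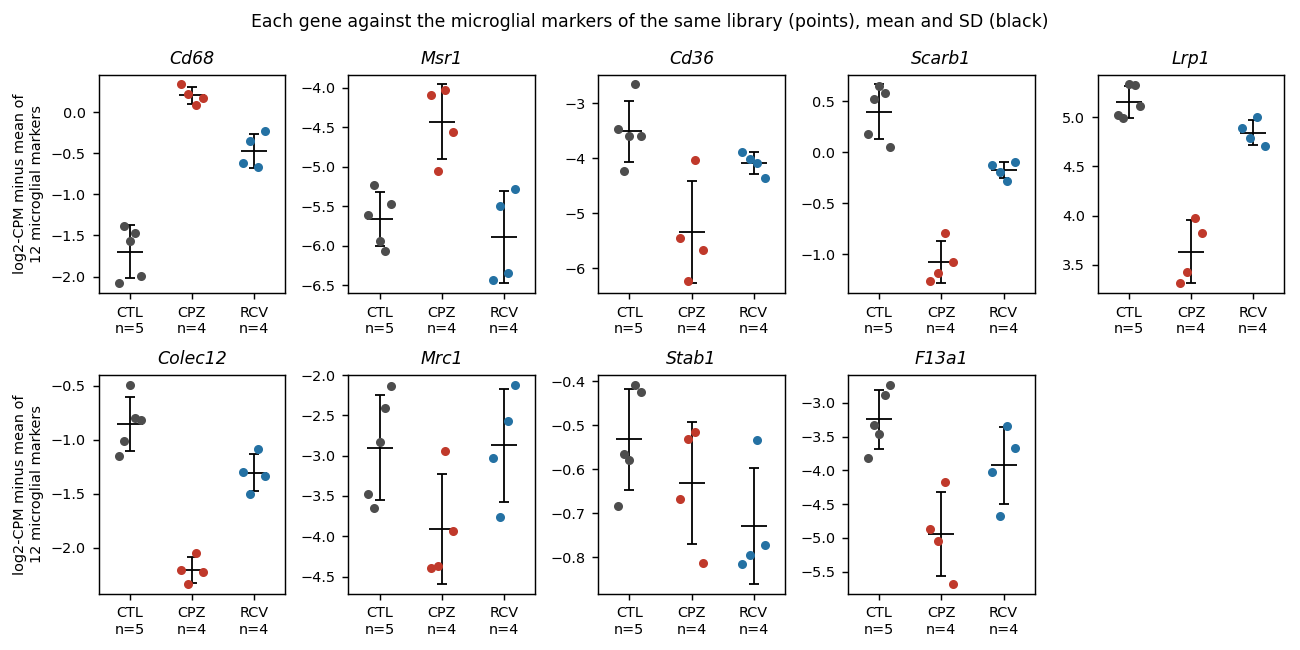
Log2-CPM of each gene minus the mean log2-CPM of 12 microglial markers in the same library, 1 panel per gene with its own axis, 1 point per library, mean and SD in black. The 3 groups are separate for Cd68 (-2.08 to -1.38 in CTL, 0.09 to 0.34 in CPZ, -0.67 to -0.23 in RCV) and overlap for Stab1.

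Other genes of the pathway were described as 4 lists. Of 18 other scavenger receptors, 10 were tested, and CPZ against CTL called 3 higher and none lower (median log2 fold change 0.15 over the 10, against -0.02 over all genes). These were Clec7a, a receptor for beta-glucans, with 2 to 4 counts in CTL, 238 to 419 in CPZ and 32 to 113 in RCV (6.60, SE 0.41, edgeR adjusted p = 5.30e-07), Cxcl16, a membrane chemokine that binds oxidised lipoprotein (2.69), and Cd44, the hyaluronan receptor (2.48). The same 3 genes were called in CPZ against RCV (1.75, 1.26 and 1.72), and Clec7a alone in RCV against CTL (4.85, SE 0.48, edgeR adjusted p = 6.13e-04).

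All 13 other members of the LDL receptor family were tested, and 1 was called higher in CPZ against CTL, with a median of -0.09 over the 13. This was Lrp5, a co-receptor of Wnt signalling (log2 fold change 0.73, SE 0.12, edgeR adjusted p = 4.22e-04). Lrp5 was also called higher in CPZ against RCV (0.79), and none of the 13 was called in RCV against CTL by edgeR, DESeq2 or limma-voom (0 with an unadjusted edgeR p under 0.05).

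Of 16 ligands, 13 were tested, and CPZ against CTL called 5 higher and none lower (median 0.20). The largest rises were those of Lpl, which hydrolyses the triglycerides of lipoproteins (2.47), and A2m, the protease inhibitor alpha-2-macroglobulin (1.965). In CPZ against RCV 2 were called, Lpl (1.55) and Apoe, the main apolipoprotein of the brain (0.62). In RCV against CTL edgeR called Clu, clusterin (0.31, SE 0.06, edgeR adjusted p = 0.0479), while DESeq2 called 3 ligands and limma-voom 0. The RCV and CTL libraries of A2m (1.18, edgeR adjusted p = 0.0848) and Apoe (0.54, edgeR adjusted p = 0.119) did not overlap either.

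Of 10 adaptors and chaperones, 9 were tested, and CPZ against CTL called 4 higher and none lower (median 0.13). The largest rises were those of Vav1, an exchange factor of blood cells and microglia (2.36), Lyn, a Src-family kinase (2.09), and Dab2, an endocytic adaptor (0.74). CPZ against RCV called Lyn (1.60), Vav1 (1.40) and Dab2 (0.86), and none of the 9 was called in RCV against CTL by edgeR, DESeq2 or limma-voom (3 with an unadjusted edgeR p under 0.05).

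**Figure D5:**
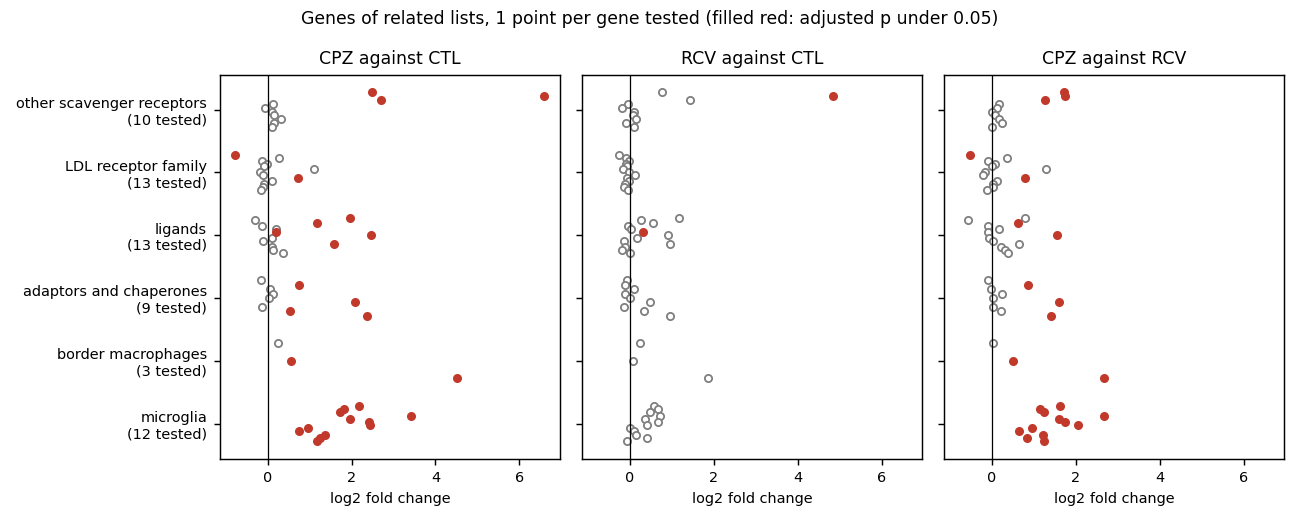
Log2 fold change of every tested gene of 4 pathway lists, of further border macrophage markers and of microglial markers, 1 point per gene and 1 panel per comparison, filled red for an adjusted p under 0.05. All 12 microglial markers are called in both comparisons of CPZ, while most genes of the pathway lists lie near 0 and Clec7a reaches 6.60.

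The genes most like each member within groups were found from the Pearson r of log2-CPM after the group means were removed, over 13 libraries and 14143 genes. This is a description, since libraries share depth and composition. For Cd68 they were Capg, an actin-capping protein (r = 0.962), Csf3r, the receptor of granulocyte colony-stimulating factor (0.945), and C1qb, a chain of complement C1q (0.943). For Stab1 they were Snx17, an endosomal sorting protein (0.954), Aif1, a microglial marker of the list above (0.919), and Runx1, a transcription factor of blood cells (0.907). Against other members, Stab1 had r = 0.697 with Cd68, 0.554 with F13a1 and 0.027 with Mrc1. Colec12 was closest to Rnase4 (0.93), Dmp1 (0.903) and Pycard (0.901). Mrc1 and F13a1 shared 1 of their 3 genes, Slc6a13 (0.88 and 0.913), a transporter that is in the list of meningeal fibroblast markers. The other 2 were Atp8a1 (0.882) and Shroom2 (0.861) for Mrc1, and Irf2bpl (0.904) and Ftsj3 (0.891) for F13a1. Msr1 was closest to Mcmbp, Gm42583 and Arg2 (0.87 to 0.931), and Cd163 to Appbp2, Prepl and Fxr1 (0.899 to 0.965), but both genes hold so few counts that these values are no finding.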

How the data were processed

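Bulk RNA-seq libraries of 13 mouse brain hemispheres were made with the Kapa mRNA HyperPrep kit. Deposited by the authors were estimated counts for each gene, without any scaling, and TPM values, together with an annotation of gene names and lengths. The submitters' processing notes name STAR, RSEM and mm10, and the paper names the RNASequest pipeline; versions and the strand setting are not given. Groups come from the treatment label. The methods give fewer mice per group than there are libraries, and a legend of the paper gives the deposited numbers. P-values measure the spread between these libraries.

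Members and lists were chosen with earlier results of these data known. All 92 spike-in rows held 0 counts. Estimated counts were rounded, passed through filterByExpr (edgeR 4.0.16, by group), given TMM factors and fitted with its robust quasi-likelihood method in 1 fit of 3 groups (R 4.3.3), with Benjamini-Hochberg adjustment over 14985 genes and a threshold of 0.05. Log2-CPM used a prior count of 2. Totals per library were 4605100 to 8197289 counts. Within groups the chi-square of any pair of libraries was 4.49 to 17.8 for each gene, so none was a repeat of another. Values relative to the microglial list and those of Cd163 were put to the exact permutation test, two-sided (scipy 1.17.1), whose smallest p is 0.0159 for 4 against 5 libraries and 0.0286 for 4 against 4. Counting intervals are exact conditional intervals at 95% and cover counting error only. Genomic positions are those of GENCODE M21 on mm10, which held 98.1% of the identifiers.

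Named genes are the 10 members, up to 3 called genes per direction in each pathway list and in the border macrophage list, and for 7 members the 3 most alike genes whose mean log2-CPM was 1 or more. Some called genes of these lists are not reported here. Pf4, Lyve1, Cbr2, Folr2, Ms4a7, Cd209a, Cd209f, Clec10a, Cd38, Aqp4, Aldh1l1, Slc1a3, Hba-a2, Hbb-bt, Cldn5 and Nt5dc2 were named after their values were seen. Alternatives were DESeq2 1.42.0 size factors and Wald test, limma-voom and limma 3.58.1 on log2(TPM + pseudocount), which was 1 or 0.1 (TPM of at least 1 in 4 libraries, or no filter), no count filter, at least 10 counts in every library, only the groups compared, the replicate number as a block, each library left out, and, chosen after the data were seen, RCV replicates 3 and 4 left out together.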

Additional observations from a re-analysis of the deposited data

Results flagged for a closer look

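A library far from the others of its group (Dixon's test at 95%) was seen in 4 of the 30 combinations of gene and group, where chance gives about 1 in 20. Msr1 was 4.90 CPM in CPZ replicate 1 against 2.31 to 2.64 in the other CPZ libraries. Mrc1 was 5.97 CPM in CPZ replicate 3 against 3.74 to 3.89. Cd163 was 1.65 CPM in CTL replicate 5 against 0.307 to 0.544, and 1.73 CPM in RCV replicate 4 against 0.880 to 0.972, from 9 and 8 counts.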

How the results depend on the processing

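The calls of Cd68, Msr1 and Stab1 in CPZ against CTL held in every fit that gave a value, and their direction never changed. Msr1 was not tested with at least 10 counts in every library. Without 1 library, 3 to 5 members and 1078 to 1451 genes were called in CPZ against CTL, 0 to 1 and 21 to 54 in RCV against CTL, and 3 to 5 and 632 to 1092 in CPZ against RCV. For RCV against CTL, no member was called with limma-voom (16 genes in all), with at least 10 counts in every library (20 genes), without RCV replicates 3 and 4 (34 genes) or with no count filter (0 members), while DESeq2 called 131 genes and limma on log2(TPM + 1) without a filter 16. In CPZ against RCV, limma called 1 member, Cd68, on log2(TPM + 1), log2(TPM + 0.1) and unfiltered TPM (584, 503 and 477 genes). The last of these called 993 genes in CPZ against CTL, and without RCV replicates 3 and 4 there were 556 in CPZ against RCV. The cause was not tested. Relative to Csf1r alone, 19 of 27 tests passed, against 0 relative to the mean or median of the list; the exact tests were not repeated without single libraries, only the differences. Libraries with the same replicate number did not deviate together (correlations of -0.199 to 0.136), and with the replicate block 3 members (1172 genes) were called in CPZ against CTL, 1 (42) in RCV against CTL and 4 (755) in CPZ against RCV, the same numbers of members as without it. Depth limits Msr1, Cd36, Cd163 and F13a1, which held under 20 counts in most libraries.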
